A study of Mus musculus with 12 samples.

Results

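The cell cycle and DNA replication genes described here are 44 genes chosen by name, from the cyclins and replication factors of G1 and S phase to the kinases, motors and checkpoint proteins of mitosis. All 44 had a row in the count table of 54532 Ensembl genes, and all 44 were among the 15338 genes with enough reads to test. They were measured by bulk RNA sequencing of macrophages that were grown from cultured mouse bone marrow cells (BMDMs), in 12 libraries. A group of 3 libraries each came from control mice (WT), from mice carrying Gpnmb R150X (GpnmbR150X, here R150X), and from cells of both genotypes treated with oxidised low-density lipoprotein (WT OxLDL and R150X OxLDL). All groups came from DBA/2 mice crossed and then backcrossed to C57BL/6, and Gpnmb encodes a transmembrane glycoprotein that the R150X allele truncates by a premature stop. The series asks how this gene affects the lipid loading that turns macrophages into foam cells. The labels gave no OxLDL dose or duration, no age and no source of the 3 libraries of a group, so every p-value measures the spread between these libraries, which may be technical.

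Gpnmb itself followed the labels, at 5305 to 5374 CPM (counts scaled to the library total after TMM scaling) in WT, 363 to 411 CPM in R150X, 12355 to 12615 CPM in WT OxLDL and 691 to 724 CPM in R150X OxLDL. All 15 macrophage identity genes examined, Csf1r, Adgre1 and Lyz2 among them, were expressed, with summed levels of 24538 to 31111 CPM per library. Total counts per library ran from 14838969 to 18222868. R150X replicate 1 stood apart from its group: its counts differed from the other R150X libraries by a chi-square per degree of freedom of 9.23 and 10.1, against 2.31 to 4.76 for every other replicate comparison. Xist was at 228 to 349 CPM in the R150X libraries and 0 to 2.75 CPM in the WT libraries, and the Y-linked Ddx3y was at 51.3 to 60.1 CPM in the former and 83.6 to 100.4 CPM in the latter. Genotype and this difference cannot be told apart.

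A cell commits to division in G1, when D-type and E-type cyclins lead to release of E2F transcription factors from the retinoblastoma protein, and E2F then turns on the genes for replication origins, nucleotide supply and the replication fork. Genes of G2 and mitosis are repressed by the DREAM complex and switched on later through B-MYB and FOXM1, and their promoters often hold CHR and CCAAT elements. Cultured bone marrow macrophages divide in response to macrophage colony-stimulating factor and leave the cycle as they mature.

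The promoters of 5 members are shown because the results below turn on these genes. Mcm5 and Ube2c had the deepest falls with OxLDL in WT, Pcna moved the other way, Ccnb1 is the main mitotic cyclin, and the Mki67 response differed between genotypes. Each sequence is taken from the 250 bases before the RefSeq transcription start on the gene's own strand, 5′ to 3′, on GRCm38.p6. Bases that lie inside the gene as GENCODE M21 annotates it are left out, which removes the last 134 for Pcna, 84 for Ccnb1 and 31 for Ube2c. Capitals mark letters searched on both strands: the E2F letters, in the form TTCCCGC and its variants spelled TTGGCGC and also TTCGCGC and finally TTGCCGC, the CHR letters in the form TTTGAA and its variant spelled TTCGAA, and the CCAAT box by its name. These may overlap.
Mcm5 (chr8:75109259-75109508, plus strand): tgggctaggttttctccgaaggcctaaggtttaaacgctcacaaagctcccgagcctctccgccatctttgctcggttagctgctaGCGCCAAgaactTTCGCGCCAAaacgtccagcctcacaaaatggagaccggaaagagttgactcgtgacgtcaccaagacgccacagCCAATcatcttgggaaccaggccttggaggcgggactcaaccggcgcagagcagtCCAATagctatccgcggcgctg
Pcna (chr2:132253315-132253430, minus strand): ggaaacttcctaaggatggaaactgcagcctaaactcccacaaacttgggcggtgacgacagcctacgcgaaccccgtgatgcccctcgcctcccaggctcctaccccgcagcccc
Ube2c (chr2:164769679-164769897, plus strand): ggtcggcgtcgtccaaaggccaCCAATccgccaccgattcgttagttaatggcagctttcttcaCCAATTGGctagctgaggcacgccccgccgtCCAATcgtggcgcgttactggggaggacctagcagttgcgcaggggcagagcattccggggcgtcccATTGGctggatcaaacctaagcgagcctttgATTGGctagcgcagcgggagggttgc
Ccnb1 (chr13:100786571-100786736, minus strand): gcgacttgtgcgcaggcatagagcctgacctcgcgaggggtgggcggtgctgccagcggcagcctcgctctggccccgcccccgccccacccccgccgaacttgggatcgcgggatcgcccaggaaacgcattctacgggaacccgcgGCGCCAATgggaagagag
Mki67 (chr7:135716380-135716629, minus strand): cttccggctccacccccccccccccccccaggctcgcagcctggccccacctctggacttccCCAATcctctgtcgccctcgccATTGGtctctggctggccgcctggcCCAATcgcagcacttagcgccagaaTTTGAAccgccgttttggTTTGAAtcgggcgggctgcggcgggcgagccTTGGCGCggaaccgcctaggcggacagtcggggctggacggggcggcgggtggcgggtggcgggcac

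Distances here count from the RefSeq start. The Mcm5 sequence held E2F letters 164, 152 and 149 bases before it, the last 2 overlapping, and CCAAT at 77 and 22 bases. Ccnb1 held E2F letters at 102 bases that shared bases with a CCAAT at 99 bases, and a further CCAAT at 67 bases. Ube2c held the CHR letters at 29 bases with CCAAT letters at 6 places upstream. Mki67 held CHR letters at 116 and 98 bases, E2F letters at 67 bases and CCAAT at 3 places. Pcna held a lone CCAAT at 87 bases and neither of the other letters in its 250 bases. The Pcna CCAAT, the Ube2c CHR letters and the Ccnb1 CCAAT at 67 bases lie inside the GENCODE M21 genes and so are not in the stretches shown.

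Over the windows of 300 bases (250 before to 50 after a start) in the RefSeq table, which include transcribed bases, 36 of the 44 members matched an entry. E2F letters occurred in 13 of these 36 (36.1%), against 10.9% of 27025 genes in the table. CHR letters occurred in 18 (50%), against 21.7% of all genes, and CCAAT in 27 (75%), against 41.1%. Every member with CHR letters also had CCAAT, and this combination was found in 9.65% of all genes. Among the 17 matched genes of G1 and S phase, 10 held E2F letters and 3 held CHR letters. Among the 19 matched genes of mitosis and chromosome structure, 3 held E2F letters and 15 held CHR letters. The size of the OxLDL response differed little with the letters, with no test. The median log2 fold change in WT was -0.74 for members with E2F letters and -0.70 without. It was -0.74 with CHR letters and -0.67 without, and -0.73 with CCAAT and -0.66 without. In R150X the medians were -0.61 with E2F letters and -0.52 without, and -0.57 with CHR letters and -0.58 without. With CCAAT they were -0.58, and -0.52 without. A match is a description of these letters and shows no binding.

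The members were expressed at low to moderate levels. Their means over all 12 libraries ran from 3.46 CPM (Chek1) to 272 CPM (Pcna), and 25 of the 44 lay below the median tested gene at 17.7 CPM. Per kilobase of exon, Pcna stood highest in untreated WT at 83.3 CPM per kb, followed by Stmn1 at 17.6, Ccnd1 at 16.0, Mcm6 at 13.4 and E2f1 at 11.8. The order ended with Cdc6 at 1.17, Chek1 at 0.994 and Cenpf at 0.861 CPM per kb. Origin licensing genes held 5 of the 10 highest places. The lowest count behind any member was 22 reads, for Chek1 in an R150X OxLDL library.

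OxLDL was accompanied by lower levels of most of the members in both genotypes. In WT, 38 of 44 members fell and 1 rose at an adjusted p under 0.05 by edgeR's quasi-likelihood test, where 23.1% of all tested genes fell and 22.7% rose. In R150X, 38 fell and none rose, against 20.6% and 18.4% of all tested genes; 0 members rose there at an unadjusted p under 0.05 by edgeR or at an adjusted p under 0.05 by DESeq2, and Pcna rose when R150X replicate 1 was left out (0.12, adjusted p = 0.0278). The median log2 fold change of the members was -0.67 in WT and -0.55 in R150X, beside 0.014 and 0.0039 for all genes tested. All 3 OxLDL libraries lay below all 3 untreated libraries for 40 members in WT, against 27.9% of all genes, and for 36 members in R150X, against 23.7%. In bulk RNA, fewer dividing cells and less of these transcripts per cell cannot be told apart. Summed levels of stroma and neutrophil genes were also lower with OxLDL in both genotypes. For stroma genes the means were 22379 and 10673 CPM in WT and WT OxLDL, and 13586 and 8914 CPM in R150X and R150X OxLDL. The part of such cells in these falls was not tested.

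The falls were of moderate size. Of the 44 members, 25 in WT and 18 in R150X fell past 1.5-fold, against 12.8% and 10.1% of all tested genes. Only Mcm5 and Ube2c in WT and Ube2c, Chek1 and Uhrf1 in R150X passed 2-fold, against 7.2% and 5.95% of all tested genes. Those 2 and 3 of 44 members lie near the shares of all genes. In both genotypes, 35 members fell. The share of all tested genes that fell in both was not counted, and it cannot exceed the 20.6% that fell in R150X. Ccnd1, Tk1 and Bub1b fell in WT without passing in R150X, Ccne1, Cdc45 and Gins2 fell in R150X without passing in WT, and E2f1 and Cdt1 passed in neither. None of these 8 genes had a response that differed between genotypes by the interaction test. The summed level of the 44 members was 1241 ± 5.39 CPM in WT, 1304 ± 21.0 in R150X, 991 ± 21.9 in WT OxLDL and 1036 ± 10.5 in R150X OxLDL (mean ± SD, n = 3). Without Pcna the sums were 1041 ± 8.24, 1005 ± 2.74, 715 ± 10.9 and 721 ± 5.34 CPM.

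**Figure D1:**
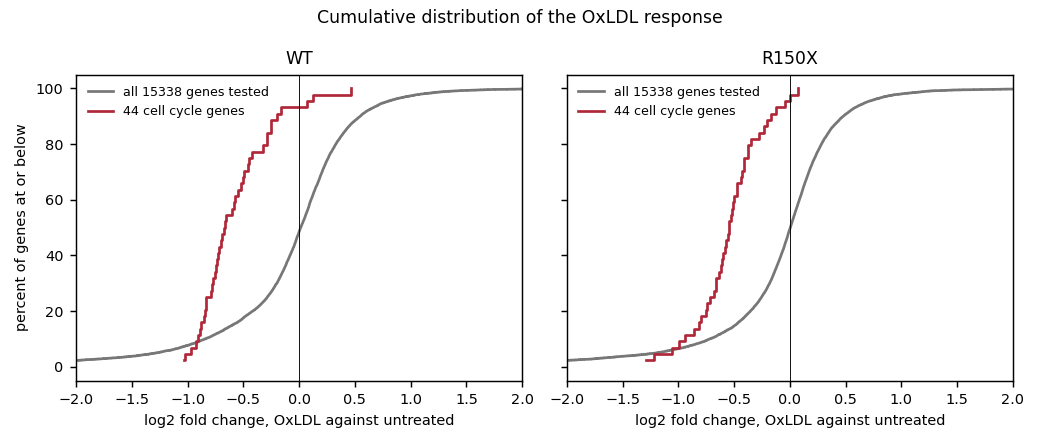
Cumulative percent of genes (y axis) at or below each log2 fold change of OxLDL against untreated (x axis) in WT (left) and R150X (right), for all 15338 genes tested (grey) and the 44 cell cycle genes (red). The red curve lies to the left of the grey one over most of its range, with medians of -0.67 in WT and -0.55 in R150X against 0.014 and 0.0039 for all genes.

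**Figure D2:**
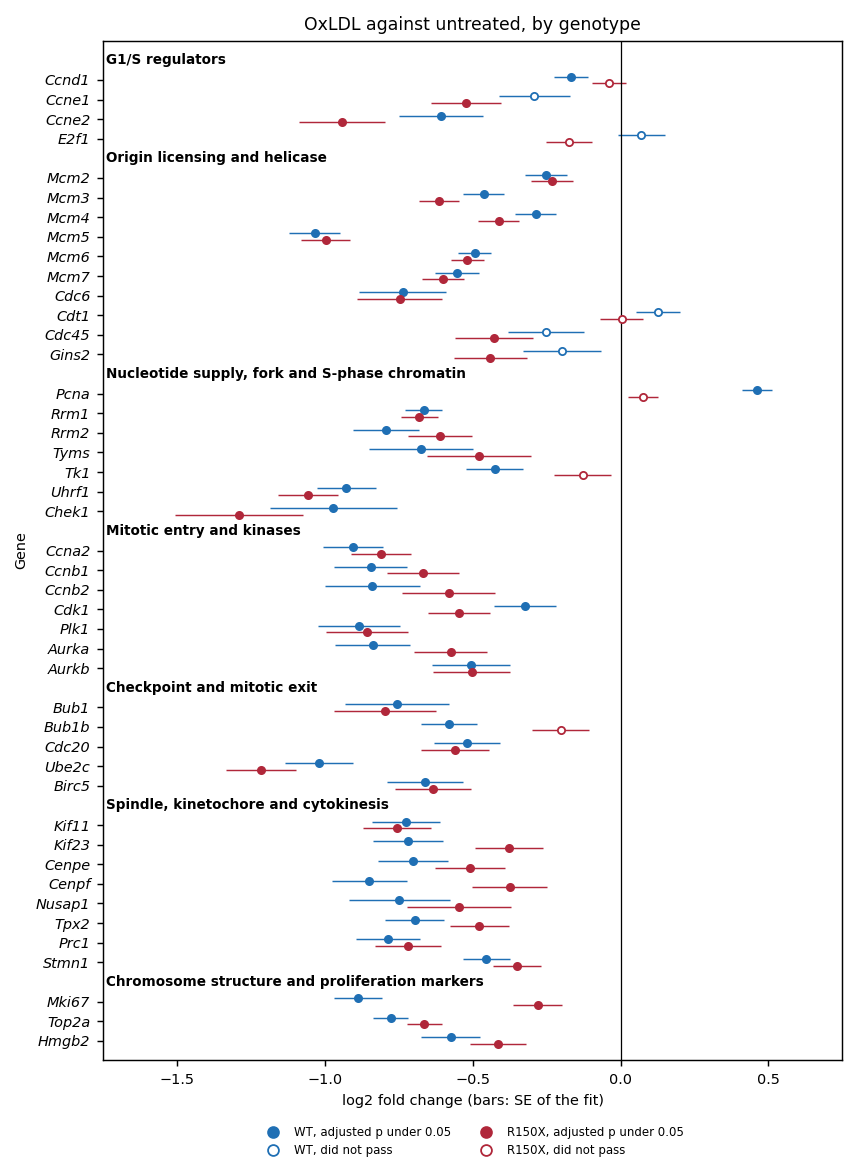
Log2 fold change of OxLDL against untreated (x axis, bars are the SE of the fit) for each of the 44 members (y axis), grouped by role, in WT (blue) and R150X (red); filled points passed an adjusted p of 0.05. Pcna in WT is the only filled point to the right of 0, and every filled point of the mitotic groups lies to the left.

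Among the 4 G1/S regulators, 2 fell with OxLDL in each genotype and none rose: Ccne2 and Ccnd1 in WT, and Ccne2 and Ccne1 in R150X. Fold changes are log2 values throughout. Ccne2, an E-type cyclin that partners CDK2 at S-phase entry, was at 6.63, 6.01 and 5.64 CPM in the 3 WT libraries and 3.76, 4.22 and 4.03 CPM in the 3 WT OxLDL libraries. In R150X it was at 6.599, 6.14 and 5.93 CPM untreated and 3.64, 2.98 and 3.104 CPM with OxLDL. Every OxLDL library lay below every untreated library, with log2 fold changes of -0.61 (SE 0.14, adjusted p = 0.00139) in WT and -0.94 (SE 0.15, adjusted p = 2.07e-05) in R150X.

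Ccne1, the other E-type cyclin, was at 11.9, 10.5 and 10.8 CPM in WT, 9.71, 8.304 and 9.11 in WT OxLDL, 13.8, 13.1 and 11.6 in R150X and 8.03, 8.24 and 10.5 in R150X OxLDL. It fell in R150X at -0.52 (SE 0.12, adjusted p = 0.00128), while the WT value of -0.29 (SE 0.12, adjusted p = 0.0538) missed the threshold although the 2 groups did not overlap. With RLE size factors, or with only the groups compared in the fit, the WT value passed (adjusted p = 0.0489 and 0.0333). The difference between the responses was -0.23 (SE 0.17, adjusted p = 0.459), which did not pass.

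Ccnd1, the D-type cyclin that links growth factor signals to CDK4 and CDK6, was highest in untreated WT. It was at 75.3, 77.4 and 73.4 CPM in WT, 56.7, 62.3 and 62.96 in R150X, 63.3, 68.5 and 69.5 in WT OxLDL and 58.6, 58.6 and 60.1 in R150X OxLDL. All WT libraries lay above all libraries of the other groups. It fell with OxLDL in WT at -0.17 (SE 0.056, adjusted p = 0.019), a call lost without WT replicate 2 (-0.15) or WT OxLDL replicate 1 (-0.13), and was at -0.040 (SE 0.057, adjusted p = 0.624) in R150X. R150X was lower than WT untreated, at -0.31 (SE 0.056, adjusted p = 0.000237), and under OxLDL, at -0.18 (SE 0.058, adjusted p = 0.0387). The call under OxLDL was lost in 5 of the 6 fits that left out a library of these groups, all but the one without WT OxLDL replicate 1, at -0.16 to -0.20.

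E2f1, the activator E2F that drives S-phase genes, did not pass for OxLDL in either genotype, at 0.070 (SE 0.079, adjusted p = 0.503) in WT and -0.17 (SE 0.077, adjusted p = 0.0835) in R150X. The levels were 38.3, 33.1 and 40.4 CPM in WT and 39.7, 39.3 and 38.4 in WT OxLDL, then 51.7, 42.0 and 48.3 in R150X and 40.1, 42.7 and 42.9 in R150X OxLDL. Untreated R150X libraries all lay above the WT libraries and the difference passed at 0.34 (SE 0.077, adjusted p = 0.00189). The OxLDL value in R150X passed when R150X replicate 2, the lowest of its group, was left out (-0.25, adjusted p = 0.0141).

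Origin licensing and helicase genes, which load and activate the MCM helicase at replication origins, fell in 7 of 10 cases in WT and 9 of 10 in R150X, and none rose. Medians were -0.37 and -0.48. Mcm5, a helicase subunit, had the deepest fall of this group in both genotypes. It was at 32.5, 32.6 and 36.1 CPM in WT and 17.6, 16.5 and 15.2 in WT OxLDL, and at 35.3, 35.96 and 36.98 in R150X and 19.6, 18.7 and 16.01 in R150X OxLDL. No treated library reached the level of any untreated one, and the treated groups were at 48.8% of untreated in WT and 50.1% in R150X, with log2 fold changes of -1.03 (SE 0.085, adjusted p = 1.66e-09) and -0.998 (SE 0.083, adjusted p = 2.63e-09).

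The other subunits of the hexamer fell less. Mcm6 went from 63.1, 64.03 and 60.3 CPM in WT to 43.2, 44.9 and 45.1 in WT OxLDL and from 61.5, 64.2 and 63.2 in R150X to 46.5, 43.9 and 41.6 in R150X OxLDL, at -0.49 (SE 0.057, adjusted p = 2.88e-07) and -0.52 (SE 0.056, adjusted p = 1.72e-07). Mcm7 went from 35.1, 33.8 and 35.4 to 21.9, 24.3 and 24.9 CPM in WT and from 38.2, 35.96 and 34.9 to 23.02, 23.2 and 25.6 in R150X, at -0.55 (SE 0.073, adjusted p = 2.11e-06) and -0.60 (SE 0.072, adjusted p = 7.60e-07). No genotype difference passed for either, and no OxLDL library overlapped an untreated one. Mcm3 went from 45.4, 42.4 and 43.1 to 33.1, 31.2 and 30.6 CPM in WT, at -0.46 (SE 0.069, adjusted p = 1.16e-05). In R150X it went from 53.6, 50.3 and 50.8 to 30.2, 34.8 and 35.9 CPM, at -0.61 (SE 0.068, adjusted p = 2.18e-07). The untreated R150X libraries stood above the WT ones by 0.24 (SE 0.066, adjusted p = 0.00789).

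Mcm2, a subunit also used as a proliferation marker, changed least with OxLDL among Mcm2 to Mcm7. It was at 28.3, 27.1 and 28.4 CPM in WT, 24.1, 22.7 and 23.6 in WT OxLDL, 31.1, 29.1 and 32.6 in R150X and 25.6, 26.1 and 27.5 in R150X OxLDL. The groups of each genotype did not overlap, and the falls were -0.25 (SE 0.072, adjusted p = 0.00652) in WT and -0.23 (SE 0.070, adjusted p = 0.0121) in R150X, the latter lost without R150X replicate 3 (-0.19). Mcm4 fell at -0.29 and -0.41 (WT and R150X), and Cdc6, the loader that recruits the helicase, at -0.74 and -0.75.

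The remaining licensing and helicase genes moved less evenly. Cdt1, the loading partner that is degraded in S phase, was at 29.8 ± 1.02 CPM in WT, 32.6 ± 3.399 in WT OxLDL, 34.5 ± 1.33 in R150X and 34.6 ± 0.981 in R150X OxLDL, and OxLDL gave 0.13 (SE 0.075, adjusted p = 0.179) and 0.0033 (SE 0.073, adjusted p = 0.977). In WT it passed upwards when WT OxLDL replicate 1 was left out (0.21, adjusted p = 0.0316). Cdc45, which joins the active helicase, fell in R150X (-0.43, SE 0.13, adjusted p = 0.0128), a call lost without R150X OxLDL replicate 2 (-0.35), and was at -0.25 (SE 0.13, adjusted p = 0.115) in WT. Gins2, a subunit of the GINS complex of the same helicase, fell in R150X (-0.44, SE 0.12, adjusted p = 0.00773) and was at -0.20 (SE 0.13, adjusted p = 0.229) in WT.

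Genes of nucleotide supply and the replication fork fell in 6 of 7 cases in WT and 5 of 7 in R150X. Pcna, the sliding clamp that holds DNA polymerase on the template and also serves DNA repair, was the exception. It was at 199.7, 197 and 203 CPM in WT, 319, 292 and 284 in R150X, 287, 276 and 263 in WT OxLDL and 323, 309 and 312 in R150X OxLDL. Every WT untreated library lay below the other 9. Pcna rose with OxLDL in WT by 0.46 (SE 0.051, adjusted p = 1.53e-07), while R150X gave 0.076 (SE 0.050, adjusted p = 0.254). The difference between these responses passed the interaction test at -0.39 (SE 0.072, adjusted p = 0.00131), and stayed between -0.42 and -0.33 when any library was left out.

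Rrm1, the large subunit of ribonucleotide reductase, which makes deoxynucleotides, went from 75.7, 81.4 and 76.6 CPM in WT to 50.1, 51.2 and 45.9 in WT OxLDL and from 73.6, 72.2 and 71.6 in R150X to 48.6, 45.4 and 41.6 in R150X OxLDL. It fell to 63.02% and 62.4% of untreated, with log2 fold changes of -0.67 (SE 0.062, adjusted p = 1.22e-08) and -0.68 (SE 0.062, adjusted p = 1.24e-08) and no overlap. Rrm2, the small subunit whose level limits the enzyme in S phase, went from 25.5, 22.5 and 22.2 to 13.6, 13.95 and 12.9 CPM in WT and from 28.9, 24.7 and 20.1 to 16.6, 15.2 and 16.3 CPM in R150X. Its falls were -0.79 (SE 0.11, adjusted p = 5.19e-06) and -0.61 (SE 0.11, adjusted p = 0.000111), and the untreated R150X libraries spread more widely than those of the other groups.

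Uhrf1, which carries DNA methylation through replication, went from 24.3, 23.5 and 28.6 CPM in WT to 13.5, 13.6 and 13.1 in WT OxLDL. In R150X it went from 22.7, 28.5 and 26.98 to 13.05, 11.9 and 12.7 CPM. The treated libraries formed a narrow band below every untreated one, at -0.93 (SE 0.10, adjusted p = 1.22e-07) in WT and -1.06 (SE 0.10, adjusted p = 2.10e-08) in R150X. Chek1, the replication checkpoint kinase, had the lowest reads of the members and fell at -0.97 (SE 0.21, adjusted p = 0.000851) and -1.29 (SE 0.22, adjusted p = 5.98e-05). Tyms, thymidylate synthase, fell at -0.68 in WT and -0.48 in R150X, the latter lost without R150X replicate 1 or 3 or R150X OxLDL replicate 1 (-0.46, -0.35 and -0.30). Tk1, the thymidine salvage kinase, fell in WT (-0.43, SE 0.10, adjusted p = 0.00105) and was at -0.13 (SE 0.10, adjusted p = 0.317) in R150X, and the difference of 0.30 (SE 0.14, adjusted p = 0.203) did not pass.

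**Figure D3:**
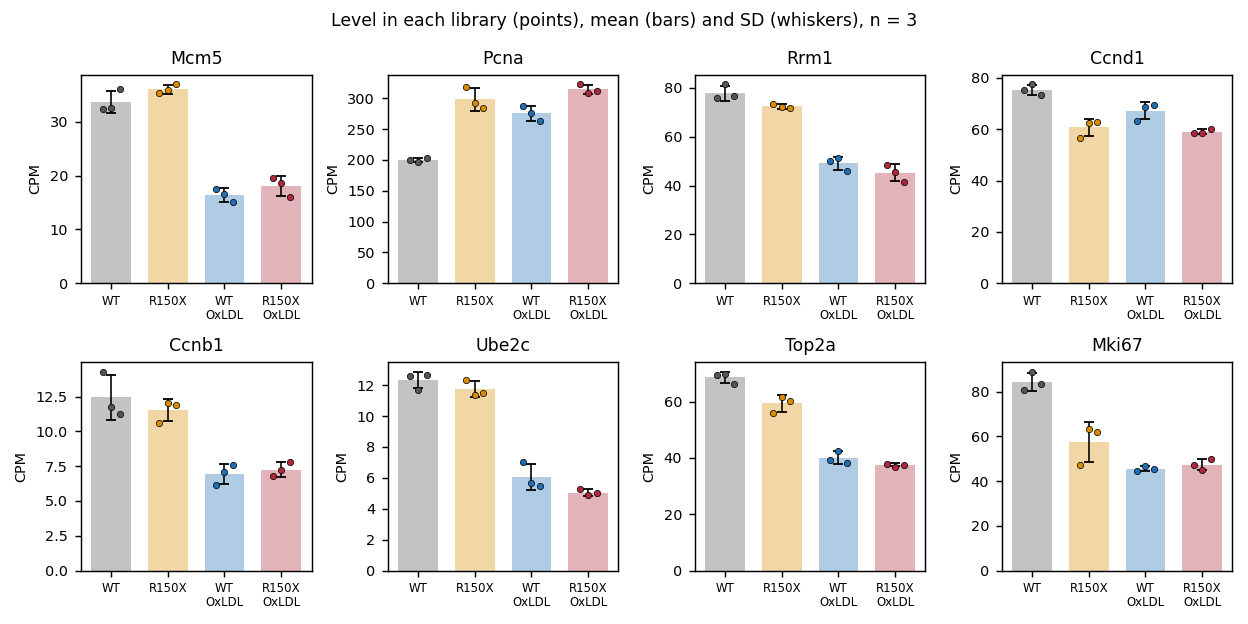
Level in CPM (y axes from 0) of 8 members in the 12 libraries (points), with bars for the mean of each group and whiskers for the SD (n = 3). Mcm5, Rrm1, Ccnb1, Ube2c and Top2a are lower in both OxLDL groups, Pcna is lowest in untreated WT at 199.96 CPM, and Ccnd1 and Mki67 are highest in untreated WT.

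All 7 genes of mitotic entry fell with OxLDL in both genotypes, with medians of -0.84 in WT and -0.58 in R150X. Ccna2, the cyclin of S phase and G2, went from 18.9, 21.4 and 19.0 CPM in WT to 11.97, 10.4 and 9.18 in WT OxLDL and from 18.5, 18.6 and 17.5 in R150X to 10.04, 10.2 and 10.8 in R150X OxLDL. It fell at -0.91 (SE 0.10, adjusted p = 1.94e-07) and -0.81 (SE 0.10, adjusted p = 1.28e-06), with no overlap. Ccnb1, the mitotic cyclin that activates CDK1, went from 14.3, 11.8 and 11.3 to 6.14, 7.08 and 7.58 CPM in WT and from 10.6, 12.1 and 11.9 to 6.78, 7.21 and 7.79 CPM in R150X. Its falls were -0.85 (SE 0.12, adjusted p = 7.72e-06) and -0.67 (SE 0.12, adjusted p = 0.000155), again without overlap.

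Plk1, the kinase of spindle assembly and mitotic exit, went from 11.5, 12.3 and 9.23 CPM in WT to 6.77, 4.97 and 6.12 in WT OxLDL. In R150X it went from 10.5, 10.5 and 10.3 to 4.96, 6.35 and 5.97 CPM, and the falls were -0.89 (SE 0.14, adjusted p = 1.85e-05) and -0.86 (SE 0.14, adjusted p = 3.59e-05). Aurka, the kinase of centrosome maturation, went from 7.71, 7.701 and 7.57 to 4.57, 3.88 and 4.38 CPM in WT and from 7.67, 8.004 and 7.03 to 5.39, 4.92 and 4.93 CPM in R150X. Its falls were -0.84 (SE 0.13, adjusted p = 1.31e-05) and -0.57 (SE 0.12, adjusted p = 0.00078), and both kinases showed a clear gap between treated and untreated libraries.

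Ccnb2, a second B-type cyclin, fell at -0.84 in WT and -0.58 in R150X, and Aurkb, the kinase of the chromosomal passenger complex, at -0.51 and -0.50. Cdk1, the kinase that cyclins A and B activate, fell least of this group in WT (-0.32, SE 0.10, adjusted p = 0.0161) and at -0.55 (SE 0.10, adjusted p = 0.000229) in R150X. The WT call for Cdk1 was lost without WT replicate 1 (-0.29), WT replicate 2 (-0.30) or WT OxLDL replicate 3 (-0.21).

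Checkpoint and mitotic exit genes fell in 5 of 5 cases in WT and 4 of 5 in R150X. Ube2c, the ubiquitin-conjugating enzyme of the anaphase-promoting complex, went from 12.6, 11.7 and 12.7 CPM in WT to 7.02, 5.65 and 5.49 in WT OxLDL and from 12.3, 11.4 and 11.5 in R150X to 5.27, 4.86 and 4.99 in R150X OxLDL. The treated levels were 49.3% and 43.02% of untreated, with falls of -1.02 (SE 0.12, adjusted p = 2.22e-07) and -1.22 (SE 0.12, adjusted p = 2.98e-08). Bub1b, a kinetochore checkpoint protein, was at 16.01, 16.6 and 15.03 CPM in WT, 11.3, 10.01 and 10.4 in WT OxLDL, 13.3, 13.2 and 13.6 in R150X and 11.7, 12.2 and 10.8 in R150X OxLDL. The treated libraries lay below the untreated ones in both genotypes. It fell in WT at -0.58 (SE 0.10, adjusted p = 3.29e-05) and was at -0.20 (SE 0.10, adjusted p = 0.0998) in R150X. The difference between the responses, 0.38 (SE 0.13, adjusted p = 0.0929), did not pass, and passed with library size as the only scaling (0.47, adjusted p = 0.0329).

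Birc5, survivin, part of the chromosomal passenger complex, went from 9.43, 11.8 and 10.9 to 6.52, 6.87 and 6.95 CPM in WT and from 11.3, 9.64 and 9.07 to 7.34, 5.66 and 6.27 CPM in R150X. The falls were -0.66 (SE 0.13, adjusted p = 0.000233) and -0.63 (SE 0.13, adjusted p = 0.000497). Cdc20, the activator of the anaphase-promoting complex, went from 10.9, 9.92 and 10.9 to 7.96, 6.94 and 7.23 CPM in WT and from 9.798, 9.86 and 8.85 to 6.21, 6.12 and 7.0 CPM in R150X. It fell at -0.52 (SE 0.11, adjusted p = 0.000663) and -0.56 (SE 0.11, adjusted p = 0.000503). Neither gene had overlapping groups, and Bub1, the partner checkpoint kinase, fell at -0.76 and -0.80.

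Every spindle, kinetochore and cytokinesis gene fell in both genotypes, 8 of 8 in each, with medians of -0.72 in WT and -0.49 in R150X. Prc1, which bundles microtubules of the central spindle, went from 16.2, 16.8 and 17.4 CPM in WT to 10.5, 9.73 and 8.97 in WT OxLDL and from 12.9, 13.8 and 15.1 in R150X to 9.66, 8.52 and 7.24 in R150X OxLDL. Its falls were -0.79 (SE 0.11, adjusted p = 4.12e-06) and -0.72 (SE 0.11, adjusted p = 2.49e-05). Tpx2, which activates Aurora A on the spindle, went from 21.3, 25.0 and 23.5 to 15.3, 12.3 and 15.4 CPM in WT and from 22.7, 20.97 and 20.7 to 16.1, 16.1 and 13.9 CPM in R150X, at -0.70 (SE 0.10, adjusted p = 6.22e-06) and -0.48 (SE 0.10, adjusted p = 0.000559). Kif11, the motor that separates spindle poles, went from 16.8, 17.6 and 16.1 to 11.5, 9.12 and 9.87 CPM in WT and from 13.7, 16.2 and 17.03 to 10.5, 9.15 and 8.28 CPM in R150X, at -0.73 (SE 0.11, adjusted p = 2.01e-05) and -0.76 (SE 0.12, adjusted p = 1.85e-05). None of these 3 genes had overlapping groups.

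Cenpf, a large kinetochore and nuclear matrix protein of G2, had groups that overlapped in R150X. It went from 12.2, 14.9 and 12.8 to 7.27, 7.49 and 7.37 CPM in WT, at -0.85 (SE 0.13, adjusted p = 1.11e-05). In R150X it went from 9.47, 11.8 and 12.03 to 9.91, 7.49 and 8.4 CPM, and the fall of -0.38 (SE 0.13, adjusted p = 0.0226) was lost on leaving out R150X replicate 2, R150X replicate 3, R150X OxLDL replicate 2 or R150X OxLDL replicate 3 (-0.28 to -0.36). Kif23, the central spindle motor, fell at -0.72 in WT and -0.38 in R150X, the latter lost without R150X replicate 2 (-0.33) or R150X OxLDL replicate 2 (-0.32). Nusap1, a microtubule binder, fell at -0.75 and -0.55, the latter lost without R150X replicate 2 (-0.50) or R150X OxLDL replicate 3 (-0.36). Cenpe, the kinetochore motor, fell at -0.70 and -0.51, and Stmn1, the microtubule destabiliser stathmin, at -0.45 and -0.35.

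The chromosome structure and proliferation markers fell in 3 of 3 cases in both genotypes. Top2a, the topoisomerase that untangles replicated chromosomes, went from 69.5, 69.9 and 66.3 CPM in WT to 39.4, 42.5 and 38.1 in WT OxLDL and from 55.99, 61.6 and 60.3 in R150X to 37.95, 36.9 and 37.6 in R150X OxLDL. It had the smallest adjusted p of the members in WT, at -0.78 (SE 0.059, adjusted p = 4.69e-10), and fell at -0.66 (SE 0.060, adjusted p = 9.10e-09) in R150X. Hmgb2, a chromatin protein abundant in dividing cells, went from 21.2, 24.0 and 25.01 to 15.7, 17.1 and 14.3 CPM in WT and from 30.1, 25.4 and 25.99 to 19.3, 22.5 and 19.2 CPM in R150X, at -0.58 (SE 0.10, adjusted p = 6.48e-05) and -0.41 (SE 0.10, adjusted p = 0.00146).

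Mki67, the gene of the Ki-67 protein that coats mitotic chromosomes, differed in its response between genotypes. It was at 80.7, 88.9 and 83.6 CPM in WT, 47.1, 63.1 and 61.97 in R150X, 44.6, 46.9 and 45.3 in WT OxLDL and 47.1, 45.2 and 49.98 in R150X OxLDL. WT untreated libraries stood above all others, R150X replicate 1 lay among the OxLDL libraries, and the 2 OxLDL groups overlapped. Mki67 fell at -0.89 (SE 0.082, adjusted p = 1.04e-08) in WT and -0.28 (SE 0.083, adjusted p = 0.0106) in R150X, and the R150X call was lost without R150X replicate 2 (-0.21), R150X replicate 3 (-0.22) or R150X OxLDL replicate 2 (-0.24). The interaction was 0.61 (SE 0.12, adjusted p = 0.00181), and 0.50 without R150X replicate 1, where it still passed.

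Between genotypes few members passed, and those that did went both ways. In untreated cells R150X was higher than WT for 5 of 44 members, against 18.1% of all genes tested, and lower for 4, against 14.8%. The median was -0.029, beside 0.010 for all genes. These shares of members lie below the background. The higher members, Pcna (0.58, SE 0.051, adjusted p = 2.68e-08), Gins2 (0.38, SE 0.12, adjusted p = 0.0215), E2f1 (0.34), Mcm3 (0.24) and Cdt1 (0.21, SE 0.073, adjusted p = 0.0334), all belong to G1 and S phase. The lower members were Mki67 (-0.55, SE 0.080, adjusted p = 1.89e-05), Ccnd1, itself a G1/S regulator, Bub1b (-0.25, SE 0.091, adjusted p = 0.042) and Top2a (-0.21, SE 0.057, adjusted p = 0.00738). Of the 21 members of G1 and S phase, 5 were higher and 1 lower. Of the 23 of mitosis and chromosome structure, 0 were higher and 3 lower. Both are to be set against the same 18.1% and 14.8% of all genes, and no test compared the 2 sets.

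Of these 9 calls, 3 were unstable to single libraries. Gins2 was lost on leaving out WT replicate 2, WT replicate 3, R150X replicate 1 or R150X replicate 3 (0.30 to 0.39), and with library size as the only scaling (0.30, adjusted p = 0.0614). Cdt1 was lost without the same libraries (0.18 to 0.20), with library size alone (0.13, adjusted p = 0.171), when genes of low counts were kept in the fit (0.20, adjusted p = 0.071) and with DESeq2 (adjusted p = 0.0547). Bub1b was lost in every fit that left out a library of these groups except that without WT replicate 3 (-0.22 to -0.26), and also with such genes kept (adjusted p = 0.107) and with DESeq2 (adjusted p = 0.0751). Mcm3 was lost with library size alone (0.16, adjusted p = 0.0577). Prc1, at -0.27 (SE 0.10, adjusted p = 0.0503), passed without R150X replicate 3 (-0.33). It also passed with RLE size factors (-0.28, adjusted p = 0.045) and with only the groups compared in the fit (-0.29, adjusted p = 0.0306). With library size alone it passed as well (-0.34, adjusted p = 0.0142). Mki67 stayed at -0.44 and Pcna at 0.52 without R150X replicate 1. With library size as the only scaling, 2 members were higher and 8 lower in untreated R150X, and that scaling moved the median of all genes by -0.076.

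The summed levels by role in untreated cells are a description, with no test. Licensing genes summed to 283 to 288 CPM in WT and 305 to 315 in R150X, and nucleotide, fork and S-phase chromatin genes to 359 to 360 and 434 to 476. In the latter group Pcna had means of 199.96 CPM in WT and 298 in R150X, and was the only 1 of the 7 genes to pass. That sum therefore does not describe the group as a whole. Checkpoint and mitotic exit genes summed to 57.3 to 58.7 CPM in WT and 52.0 to 54.9 in R150X, spindle genes to 133 to 139.98 and 121 to 126, and chromosome structure and proliferation genes to 171 to 183 and 133 to 150. In this last group Mki67 had means of 84.4 CPM in WT and 57.4 in R150X. No spindle gene passed on its own, although Prc1 (adjusted p = 0.0503) did so under other settings, as given above. The ranges of the genotypes overlapped for G1/S regulators (127 to 132 and 124 to 129 CPM) and for mitotic entry genes (86.7 to 97.6 and 89.1 to 99.2 CPM).

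Under OxLDL, R150X was higher than WT OxLDL for 2 of 44 members, against 6.1% of all genes tested, and lower for 1, against 6.92%. Hmgb2 was higher by 0.37 (SE 0.10, adjusted p = 0.0176) and Pcna by 0.19 (SE 0.051, adjusted p = 0.0141), and Ccnd1 was the lower member. The Hmgb2 call was lost without WT OxLDL replicate 1 (0.37) or 3 (0.31) or R150X OxLDL replicate 2 (0.29), and the Pcna call without WT OxLDL replicate 2 (0.19) or 3 (0.16) or R150X OxLDL replicate 1 (0.17).

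In the interaction, 1 of 44 members had a more positive OxLDL response in R150X (Mki67), against 3.13% of all genes tested, and 1 a more negative response (Pcna), against 5.19%. For the other 42 members no difference in response passed. The genes of G1 and S phase had a median interaction of -0.12 (21 members) and those of mitosis and chromosome structure 0.11 (23 members), with no test between them. The medians of the OxLDL response were -0.46 in WT and -0.52 in R150X for the former, and -0.75 and -0.56 for the latter.

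**Figure D4:**
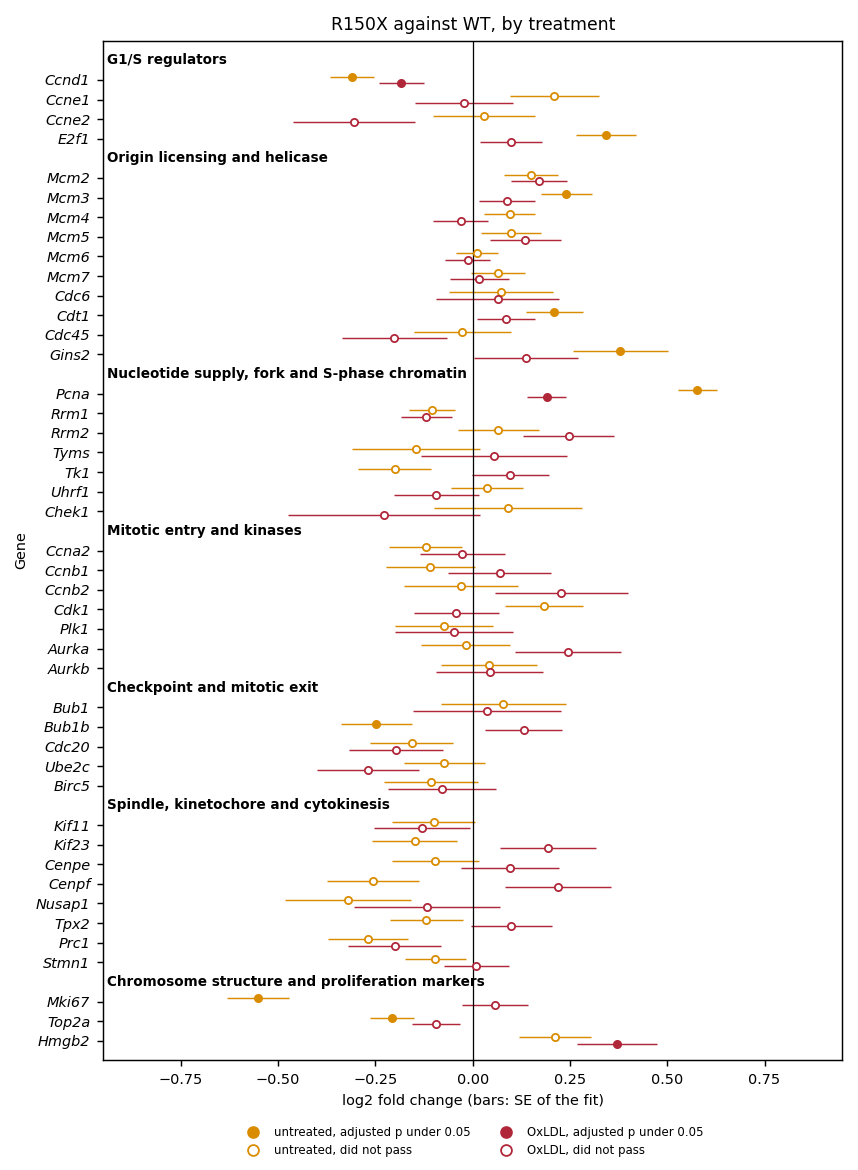
Log2 fold change of R150X against WT (x axis, bars are the SE of the fit) for the 44 members by role, untreated (orange) and with OxLDL (red); filled points passed an adjusted p of 0.05. In untreated cells the 5 filled points to the right are G1 and S phase genes led by Pcna (0.58), against 18.1% of all genes higher. The 4 filled points to the left, against 14.8% of all genes lower, include the G1/S regulator Ccnd1 (-0.31), and Mki67 (-0.55) lies farthest to the left.

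Other genes of the pathway, from 8 lists with 181 of 182 genes tested, were read beside the members. The shares to set them against are those of all 15338 genes: 23.1% fell and 22.7% rose with OxLDL in WT, 20.6% fell and 18.4% rose in R150X, and 18.1% were higher and 14.8% lower in untreated R150X. With OxLDL, genes of spindle motors, cytokinesis and condensin outside the members fell in 24 of 28 cases in WT and 17 of 28 in R150X, and none rose. Smc4, a condensin ATPase, fell at -0.49 (SE 0.060, adjusted p = 8.86e-07) and -0.55 (SE 0.060, adjusted p = 2.00e-07), and its partner Ncapd2 at -0.62 (SE 0.076, adjusted p = 8.10e-07) and -0.42 (SE 0.077, adjusted p = 0.000147). Kif2c, a microtubule-depolymerising kinesin, fell at -1.22 (SE 0.15, adjusted p = 8.66e-07) and -0.95 (SE 0.15, adjusted p = 2.11e-05). Medians were -0.59 and -0.42. In untreated R150X, 10 of these 28 genes were lower than WT and none higher, against 14.8% and 18.1% of all genes.

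Kinetochore, checkpoint and anaphase-promoting complex genes fell in 21 of 28 cases in WT and 16 of 28 in R150X, and none rose. Medians were -0.48 and -0.32. Espl1, the separase that cuts cohesin, fell at -0.83 (SE 0.11, adjusted p = 3.04e-06) in WT and -0.30 (SE 0.11, adjusted p = 0.0333) in R150X. Zwint, a kinetochore protein, fell at -0.17 (SE 0.058, adjusted p = 0.0247) and -0.43 (SE 0.058, adjusted p = 4.36e-06), and Cdc27, a subunit of the anaphase-promoting complex, at -0.54 (SE 0.079, adjusted p = 8.40e-06) and -0.29 (SE 0.078, adjusted p = 0.00584). The Espl1 call in R150X was lost without R150X replicate 2 (-0.29) or 3 (-0.21) or R150X OxLDL replicate 1 (-0.28) or 2 (-0.29). The Zwint call in WT was lost without WT replicate 1 (-0.14) or 2 (-0.16) or WT OxLDL replicate 2 (-0.15).

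Other origin and helicase factors fell in 11 of 21 cases in WT, where 1 rose, and in 8 of 21 in R150X. Mcm10 fell at -1.13 (SE 0.16, adjusted p = 4.71e-06) and -1.13 (SE 0.15, adjusted p = 3.01e-06) and Timeless, a fork protection factor, at -0.79 (SE 0.13, adjusted p = 2.61e-05) and -0.84 (SE 0.12, adjusted p = 9.37e-06). Ticrr, which fires origins, fell at -1.15 (SE 0.21, adjusted p = 0.000119) in WT and was at -0.24 (SE 0.20, adjusted p = 0.394) in R150X, with an interaction of 0.91 (SE 0.29, adjusted p = 0.0607). That interaction passed without R150X replicate 3 (1.10), WT OxLDL replicate 2 (1.10) or R150X OxLDL replicate 3 (1.03).

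Polymerases and fork factors fell in 11 of 26 cases in both genotypes, with 2 that rose in WT and 1 in R150X. Dck, the deoxycytidine salvage kinase, fell most, from 72.7 ± 5.46 to 26.4 ± 1.25 CPM in WT (-1.46, SE 0.073, adjusted p = 4.03e-13) and from 73.8 ± 2.89 to 25.6 ± 2.28 CPM in R150X (-1.52, SE 0.072, adjusted p = 1.83e-13). Lig1, the ligase of Okazaki fragments, fell at -0.60 (SE 0.093, adjusted p = 1.76e-05) and -0.58 (SE 0.093, adjusted p = 2.98e-05), and Rpa2, of the single-strand binding complex, at -0.50 (SE 0.12, adjusted p = 0.00214) and -0.74 (SE 0.12, adjusted p = 3.15e-05). In untreated cells 6 of the 26 were higher in R150X and 1 lower, against 18.1% and 14.8% of all genes. Genes of replication stress and homologous recombination fell in 10 of 20 cases in WT and 8 of 20 in R150X, where 1 rose. Brca1 fell at -0.87 (SE 0.14, adjusted p = 1.88e-05) and -0.52 (SE 0.14, adjusted p = 0.00443), and Rad51ap1 at -0.71 (SE 0.17, adjusted p = 0.00209) and -1.09 (SE 0.19, adjusted p = 7.44e-05).

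G1 cyclins, CDKs and E2F and MuvB factors fell in 7 of 23 cases (30.4%) and rose in 2 in each genotype, against 23.1% and 20.6% of all genes that fell. Medians were -0.096 and -0.083. Ccnd2, a D-type cyclin, was at 230.5 ± 5.85 CPM in WT, 143 ± 12.7 in R150X, 146 ± 3.93 in WT OxLDL and 117 ± 1.58 in R150X OxLDL, and fell at -0.66 (SE 0.056, adjusted p = 2.49e-09) and -0.29 (SE 0.056, adjusted p = 0.000258) with OxLDL. R150X was lower than WT for Ccnd2 in untreated cells, at -0.69 (SE 0.055, adjusted p = 7.01e-09). Ccnd3, the third D-type cyclin, fell at -0.44 (SE 0.054, adjusted p = 8.60e-07) and -0.72 (SE 0.055, adjusted p = 5.65e-10), and E2f8, an E2F that represses, at -1.15 (SE 0.13, adjusted p = 3.00e-07) and -0.89 (SE 0.13, adjusted p = 1.45e-05).

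CDK inhibitors, pocket proteins and p53 targets went both ways, with 3 of 18 that rose and 8 that fell in WT and 4 that rose and 9 that fell in R150X. Cdkn1c, the inhibitor p57, rose from 7.76 ± 1.12 to 19.8 ± 1.11 CPM in WT (1.35, SE 0.11, adjusted p = 1.82e-09) and from 28.2 ± 3.23 to 67.1 ± 4.59 CPM in R150X (1.25, SE 0.086, adjusted p = 1.17e-10). It was also higher in R150X than in WT, by 1.86 (SE 0.11, adjusted p = 4.03e-11) untreated and 1.76 (SE 0.091, adjusted p = 1.13e-11) under OxLDL. Cdkn2b, an inhibitor of CDK4 and CDK6, went the other way and fell at -1.35 (SE 0.10, adjusted p = 2.74e-10) and -1.28 (SE 0.10, adjusted p = 1.24e-09). Cdkn2a also fell, at -1.06 (SE 0.11, adjusted p = 9.78e-08) and -1.36 (SE 0.12, adjusted p = 5.19e-09). The other inhibitors of this list are given only in the counts above. Cdkn2a and Cdkn2b are neighbouring genes.

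Macrophage growth factor receptors and signalling genes, a list that also holds transcription factors, were mixed with OxLDL: 8 of 17 rose and 6 fell in WT, and 7 rose and 7 fell in R150X. In untreated cells 13 of the 17 were higher in R150X and 2 lower, against 18.1% and 14.8% of all genes. Egr2 rose by 0.96 (SE 0.052, adjusted p = 1.68e-12) and 0.29 (SE 0.051, adjusted p = 9.45e-05), and Cebpa, a myeloid factor that also slows division, by 1.07 (SE 0.059, adjusted p = 2.49e-12) and 0.62 (SE 0.059, adjusted p = 2.03e-08).

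Markers of other cell types moved with the same comparisons. The 12 fibroblast and stroma genes, all detected, summed to 22269 to 22477 CPM in WT, 12730 to 14152 in R150X, 10141 to 11122 in WT OxLDL and 8719 to 9147 in R150X OxLDL. With OxLDL 8 of the 12 fell in each genotype, against 23.1% of all genes in WT and 20.6% in R150X. The only 1 to rise did so in R150X (Cxcl12, 0.65 (SE 0.037, adjusted p = 4.95e-12)). In untreated R150X 9 were lower than WT and 2 higher (Lum and Cxcl12), against 14.8% and 18.1% of all genes. Col1a1, a fibroblast collagen, was at 5967 ± 48.8 CPM in WT, 3432 ± 72.04 in R150X, 2365 ± 194 in WT OxLDL and 1832 ± 58.8 in R150X OxLDL. The 14 genes of neutrophils and their precursors summed to 563 to 595, 286 to 312, 140 to 159 and 44.2 to 45.9 CPM in the same order. Osteoclast genes summed to 569.8 to 580.3, 727 to 737, 859 to 945 and 928 to 992 CPM in that order, and genes of mast cells, basophils and megakaryocytes to 34.1 to 38.3, 45.1 to 53.7, 58.3 to 61.7 and 28.4 to 31.2 CPM. The macrophage identity genes also moved. Their sums were 24538 to 24802 CPM in WT, 26800 to 28189 in R150X, 29643 to 31111 in WT OxLDL and 25760 to 26897 in R150X OxLDL. With OxLDL 8 of the 15 rose and 5 fell in WT, against 22.7% and 23.1% of all genes tested. In R150X 7 rose and 8 fell, against 18.4% and 20.6%. By the interaction 1 was more positive and 13 more negative in R150X, against 3.13% and 5.19% of all genes tested. The part of these lists in the changes of the cell cycle genes was not tested. Erythroid genes summed to 2.25 to 5.20 CPM over all libraries, with Hba-a2 at 0 in all 12, and T, NK and B cell genes to 2.86 to 6.23 CPM.

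**Figure D5:**
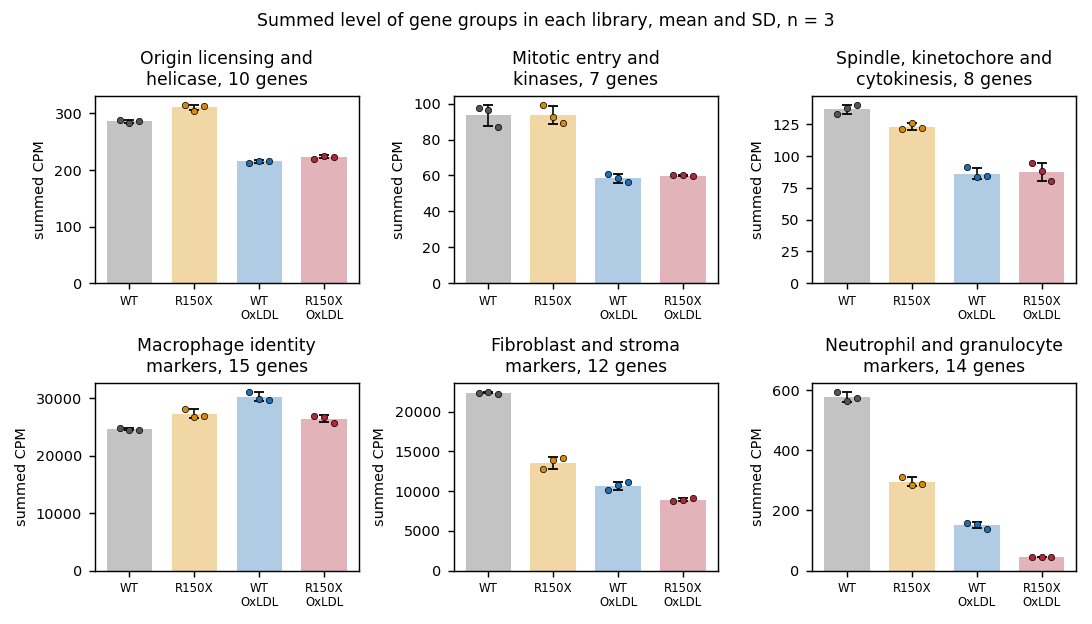
Summed CPM (y axes from 0) of 3 groups of members (top) and of 3 lists of cell type markers (bottom) in the 12 libraries, with the mean and SD of each group (n = 3). The member groups are lower in both OxLDL groups, stroma markers average 22379 CPM in WT and 8914 CPM in R150X OxLDL, and macrophage markers are lowest in WT (24538 to 24802 CPM) and highest in WT OxLDL (29643 to 31111 CPM).

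The members lie on 16 chromosomes, and the closest members are Tk1 and Birc5, 23.2 kb apart, and Cdc6 and Top2a, 69.0 kb apart, both on chromosome 11. Another annotated gene lies on the exons of 14 members. For Gins2 it covers 2758 of 4097 exon bases (Gse1 on the other strand), for Ccnd1 1100 of 4709 (LTO1), for Prc1 911 of 8225 (Rccd1) and for Ube2c 592 of 2600 (Tnnc2). Whether counting used strand is not given in the sources used here; without it, reads of such partners cannot be told apart, and the Gins2 values in particular are uncertain. Pcna, Tyms, Ccnb1, Ccnb2 and Stmn1 have named copies elsewhere in the genome and are uncertain where reads were shared. The highest count of a copy in any library was 53 for Pcna, 29 for Ccnb2, 16 for Ccnb1, 2 for Tyms and 0 for Stmn1. The lowest count of the gene itself in any library was 3705 for Pcna, 69 for Ccnb2 and 98 for Ccnb1.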

How the data were processed

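Bulk RNA of 12 libraries (4 groups of 3) was analysed from raw counts per Ensembl gene, deposited by the authors as whole numbers. FastQC, HISAT2, featureCounts and DESeq2 and the builds mm10 and GRCm38 are named in the submitters' processing notes, without versions. Symbols, positions and exon lengths came from GENCODE M21 (GRCm38), where 54409 identifiers matched; the 123 others held 0.0454% of counts.

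Low counts were removed with edgeR's filterByExpr, libraries were scaled by TMM (factors 0.969 to 1.05), and all 12 libraries entered 1 edgeR 4.0.16 fit (R 4.3.3) with 4 group means. Its quasi-likelihood test gave 5 contrasts, adjusted by Benjamini-Hochberg over 15338 genes; "rose", "fell", "higher" and "lower" mark an adjusted p under 0.05. The common biological coefficient of variation was 0.0608. Each library's floor of 3 counts is 0.158 to 0.209 CPM. The fitting steps were tested on simulated data.

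The members and the gene lists were chosen with earlier results of these data known. Full values are given for up to 4 members per role with the smallest adjusted p, and for Mki67, Top2a, Mcm2, Pcna, Ccnd1, Ccnb1 and E2f1; up to 3 passing genes per pathway list are named, by smallest adjusted p, and some of these are not reported here. Other members named singly were chosen after their values were seen. Alternatives were library size alone, RLE, no filter, DESeq2 1.42.0, a replicate block, only the groups compared, and leaving out each library.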

Additional observations from a re-analysis of the deposited data

Results flagged for a closer look

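The OxLDL response differed between genotypes, by the interaction term of the edgeR fit, for 2 members and 5 named genes of the pathway lists. The values are the response in R150X minus that in WT on the log2 scale. Pcna was at -0.39 (SE 0.072, adjusted p = 0.00131) and Mki67 at 0.61 (SE 0.12, adjusted p = 0.00181). Among D-type cyclins, Ccnd3 was at -0.29 (SE 0.077, adjusted p = 0.0235), a call lost without WT replicate 1 or 2, WT OxLDL replicate 2 or R150X OxLDL replicate 1 or 3 (-0.27 to -0.29), with library size alone (-0.20, adjusted p = 0.126) or without the filter on low counts (adjusted p = 0.070), and Ccnd2 at 0.37 (SE 0.079, adjusted p = 0.00506). Egr2 was at -0.67 (SE 0.073, adjusted p = 4.41e-06) and Cebpa at -0.45 (SE 0.083, adjusted p = 0.00126). Both rose in both genotypes and rose less in R150X. Espl1 was at 0.53 (SE 0.16, adjusted p = 0.0426), a call that held in only 1 of the 12 fits that left out a library (range 0.44 to 0.62, largest adjusted p = 0.103) and was lost with DESeq2 (adjusted p = 0.0639) and without the filter (adjusted p = 0.0633).

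For Pcna, Mki67, Ccnd2, Egr2 and Cebpa the interaction passed in every fit that left out a library. How far stroma and neutrophil RNA enter these values was not tested. Their summed levels differed between the genotypes both untreated and under OxLDL. Under OxLDL the neutrophil genes had means of 152 CPM in WT and 45.2 CPM in R150X, and the stroma genes 10673 and 8914 CPM.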

How the results depend on the processing

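Over the alternatives, 2675 member values kept their direction and their side of the threshold, 114 that passed under neither setting changed sign, 55 lost the call, 16 gained one and 0 called values reversed. With library size alone, untreated R150X had 2 members higher and 8 lower, the interaction had 2 more positive, and none was lower in R150X under OxLDL. Without a filter, and with DESeq2, 0 members were lower in R150X under OxLDL in place of 1. Library size alone shifted the median of all genes by -0.11 for OxLDL in WT, where the median of the members moved to -0.78 and stayed 0.68 below that of all genes. It moved the share of calls that were higher from 49.6% to 31.6% for OxLDL in WT, from 55% to 36.1% for untreated R150X and from 37.6% to 66.5% for the interaction.

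Leaving out single libraries gave 3 to 5 members higher and 3 to 4 lower in untreated R150X, 0 to 2 higher and 0 to 1 lower in R150X under OxLDL, 1 to 2 higher and 36 to 38 lower with OxLDL in WT, and 0 to 1 higher and 34 to 37 lower with OxLDL in R150X. The interaction kept 1 member in each direction.

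The replicate block gave 38 members lower with OxLDL in both genotypes, 5 higher and 4 lower in untreated R150X, and 2 higher and 1 lower under OxLDL. Replicate numbers were not taken to pair the libraries, since nothing in the labels says that they do. Only 2 of 18 same-numbered comparisons correlated over 0.1 (range -0.042 to 0.16), which does not settle the matter. The best match was the own number in 11 of 18, and in all 6 between genotypes within a treatment (0.035 to 0.16), a hint from the data, not the design. Depth limits the low members: for Chek1, with as few as 22 counts in a library, the SE of the interaction was 0.31.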
